A study of Homo sapiens with 8 samples.

Results

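GNAS, ADCY9, PDE4A, PDE4B and PDE4D are genes that set how strongly and for how long a Gs-coupled receptor signals through cyclic AMP. The beta-2 adrenergic receptor is such a receptor. RGS2, the remaining gene, acts on an opposing branch described below. The 6 genes were taken by symbol: every probe that the platform annotation assigns to one of them was used, which gave 11 of the 22011 probes of the array, and 6 of its 15550 annotated genes. The beta-2 receptor itself was not analysed here. RNA from A549, a cell line established from a human lung adenocarcinoma, was hybridised to Illumina BeadChips, on which each probe is an oligonucleotide carried by many beads and read as a fluorescence intensity. The comparison was 4 arrays of cells after 24 h of 100 nM dexamethasone, a synthetic glucocorticoid, against 4 arrays of cells at 0 h. The cells of all 8 arrays carried the same short hairpin RNA, directed at GLP, the product of EHMT1 and a methyltransferase of histone H3, and all cells had spent 3 days in phenol red-free medium with 5% charcoal-stripped serum, which holds little hormone. Each time had replicates 1 to 4, with replicates 1 and 2 on slide 1 and replicates 3 and 4 on slide 2. The labels do not say whether replicates were separate cultures, so p-values measure the spread between these arrays, which may be technical. The labels also do not mention vehicle for the 0 h arrays or an untreated 24 h array, so 24 h of hormone and 24 h of further culture cannot be told apart.

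A signal through this pathway starts when an agonist-bound receptor activates the G protein Gs, whose alpha subunit is encoded by GNAS. Gs alpha stimulates adenylyl cyclases, of which ADCY9 is one, to make cyclic AMP, and enzymes of the PDE4 family, encoded by PDE4A, PDE4B and PDE4D among others, hydrolyse it. RGS2 acts on the opposing branch in airway smooth muscle: it speeds GTP hydrolysis by Gq, the G protein of contractile receptors, and it is known there as a gene induced by glucocorticoids and by cyclic AMP-raising bronchodilators. PDE4D and PDE4B are known as genes whose transcription cyclic AMP itself can raise, which gives the pathway a negative feedback.

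On the RefSeq assembly GRCh38.p14, RGS2 lies at chr1:192809039-192812275, GNAS at chr20:58839748-58911192, ADCY9 at chr16:3953387-4116442, PDE4A at chr19:10416773-10469631, PDE4B at chr1:65792510-66374579 and PDE4D at chr5:58969038-60522128. The array tables name no build, so these coordinates are those of the reference and not of the probes. RefSeq listed 26 promoters of 5 of these genes: 1 for RGS2, 5 for PDE4A, 6 each for GNAS and PDE4B and 8 for PDE4D. The 250 bases before each start were searched on both strands for the core of the cyclic AMP response element, TGACG, and its full palindrome, TGACGTCA, which contains that core. They were also searched for the core of the glucocorticoid response element, AGAACA, and for the full glucocorticoid response element, that core and its reverse complement with 3 bases between. TGACG was found in 6 of the 26 promoters and in 21.2% of all 35116 listed promoters, and AGAACA in 2 of the 26 and in 12.4% of all. TGACGTCA was found in 0 of the 26 and in 1.65% of all, and the full glucocorticoid element in 0 of the 26 and in 1 of all 35116. At its first listed start PDE4A had 5 TGACG cores, and 3 of the GNAS promoters had 1 each. A match is a string of letters and not a shown binding site. Whether a listed start is a promoter in use in A549 was not tested.

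The 3 windows below are shown because RGS2 is the member that passed the test, and because PDE4D and PDE4B were the PDE4 genes with opposite signs of change. Each is the 250 bases before a RefSeq start, 5′ to 3′ on the strand of the gene, and capitals mark TGACG or AGAACA read on either strand. In RGS2 (chr1:192808789-192809038, plus strand) the TGACG core lay on the opposite strand, 181 to 177 bases before the start. In PDE4D (chr5:59587626-59587875, minus strand) it lay on the strand of the gene, 57 to 53 bases before the start. In PDE4B (chr1:65912995-65913244, plus strand) the AGAACA core lay on the opposite strand, 32 to 27 bases before the start. For PDE4D and PDE4B these are the starts chosen from 8 and 6 because they hold a marked core, and the other AGAACA core lay at another PDE4D start.
RGS2: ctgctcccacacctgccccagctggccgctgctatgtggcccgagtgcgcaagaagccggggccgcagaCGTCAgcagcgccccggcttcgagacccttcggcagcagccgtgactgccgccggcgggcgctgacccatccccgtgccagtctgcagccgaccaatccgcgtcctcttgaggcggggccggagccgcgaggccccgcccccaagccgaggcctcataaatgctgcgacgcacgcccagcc
PDE4D: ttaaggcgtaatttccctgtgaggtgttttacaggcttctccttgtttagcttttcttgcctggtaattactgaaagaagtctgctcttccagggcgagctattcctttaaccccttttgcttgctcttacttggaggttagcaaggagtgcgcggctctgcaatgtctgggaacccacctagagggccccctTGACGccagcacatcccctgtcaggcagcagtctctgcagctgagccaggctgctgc
PDE4B: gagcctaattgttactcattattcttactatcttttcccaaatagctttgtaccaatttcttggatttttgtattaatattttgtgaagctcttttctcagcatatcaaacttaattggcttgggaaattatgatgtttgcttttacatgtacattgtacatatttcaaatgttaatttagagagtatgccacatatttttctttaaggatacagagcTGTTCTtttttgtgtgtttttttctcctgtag

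Across the 8 arrays, 13897 to 14797 of the 22011 probes were detected at a detection p-value under 0.05, and the median raw intensity ran between 137.5 and 272.7. Before normalization, log2 intensities of any pair of arrays correlated at 0.977 to 0.995 across probes. The first principal component, with 45.6% of the variance, parted the times, and the second, with 22.1%, parted the slides. EHMT1, the hairpin's target, had log2 levels of 5.75, 5.69, 5.66 and 5.78 at 24 h, against 5.46, 5.55, 5.11 and 5.36 at 0 h. Detection reached 4 arrays of 4 at 24 h, against 1 of 4 at 0 h. Limma gave 0.35 ± 0.13 (SE) with an adjusted p of 0.135, which is short of the threshold. Since every array carried the hairpin, these arrays hold no measure of the knockdown. Of 10 A549 markers, 8 were detected on all 8 arrays, among them the keratins KRT8 and KRT18 and the urea cycle enzyme CPS1. EPCAM was detected on 4 arrays of 4 at 24 h, against 3 of 4 at 0 h. SFTPB was not tested: one probe was detected on 0 arrays of 4 at 24 h, against 1 of 4 at 0 h, and the other on no array. The RNA is of whole cultures, so fewer cells that express a gene and less RNA per cell cannot be told apart.

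RGS2 was the member that rose. Its single probe (ILMN_2197365) had normalized log2 levels of 12.62, 12.80, 12.16 and 11.77 at 24 h in replicates 1 to 4, against 11.23, 11.26, 10.73 and 11.16 at 0 h. All 4 arrays at 24 h were above all 4 at 0 h, and the closest of them was replicate 4 at 24 h. Before normalization its bead intensities were 4759, 7424, 6316 and 3648 at 24 h, against 1337, 2407, 2718 and 2848 at 0 h, so the times did not overlap there either. The mean was 12.34 ± 0.47 at 24 h and 11.09 ± 0.25 at 0 h (SD, n = 4 each), a difference of 1.24 ± 0.23 (SE), or 2.37-fold, with a 95% interval of 0.74 to 1.75 (limma adjusted p = 0.00608). The 24 h levels of replicates 1 and 2 were above those of replicates 3 and 4. Replicates 1 and 2 gave a difference of 1.47 ± 0.15 (adjusted p = 0.0135) on their slide, and replicates 3 and 4 one of 1.02 ± 0.23 on theirs, where limma's test with 2 arrays a time did not pass (adjusted p = 0.0815). Taken by replicate number, the difference was 1.39, 1.55, 1.43 and 0.61. In the authors' deposited table of normalized values the probe stood at 12.77, 12.97, 12.31 and 11.92 at 24 h, against 11.39, 11.43, 10.90 and 11.33 at 0 h.

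**Figure D1:**
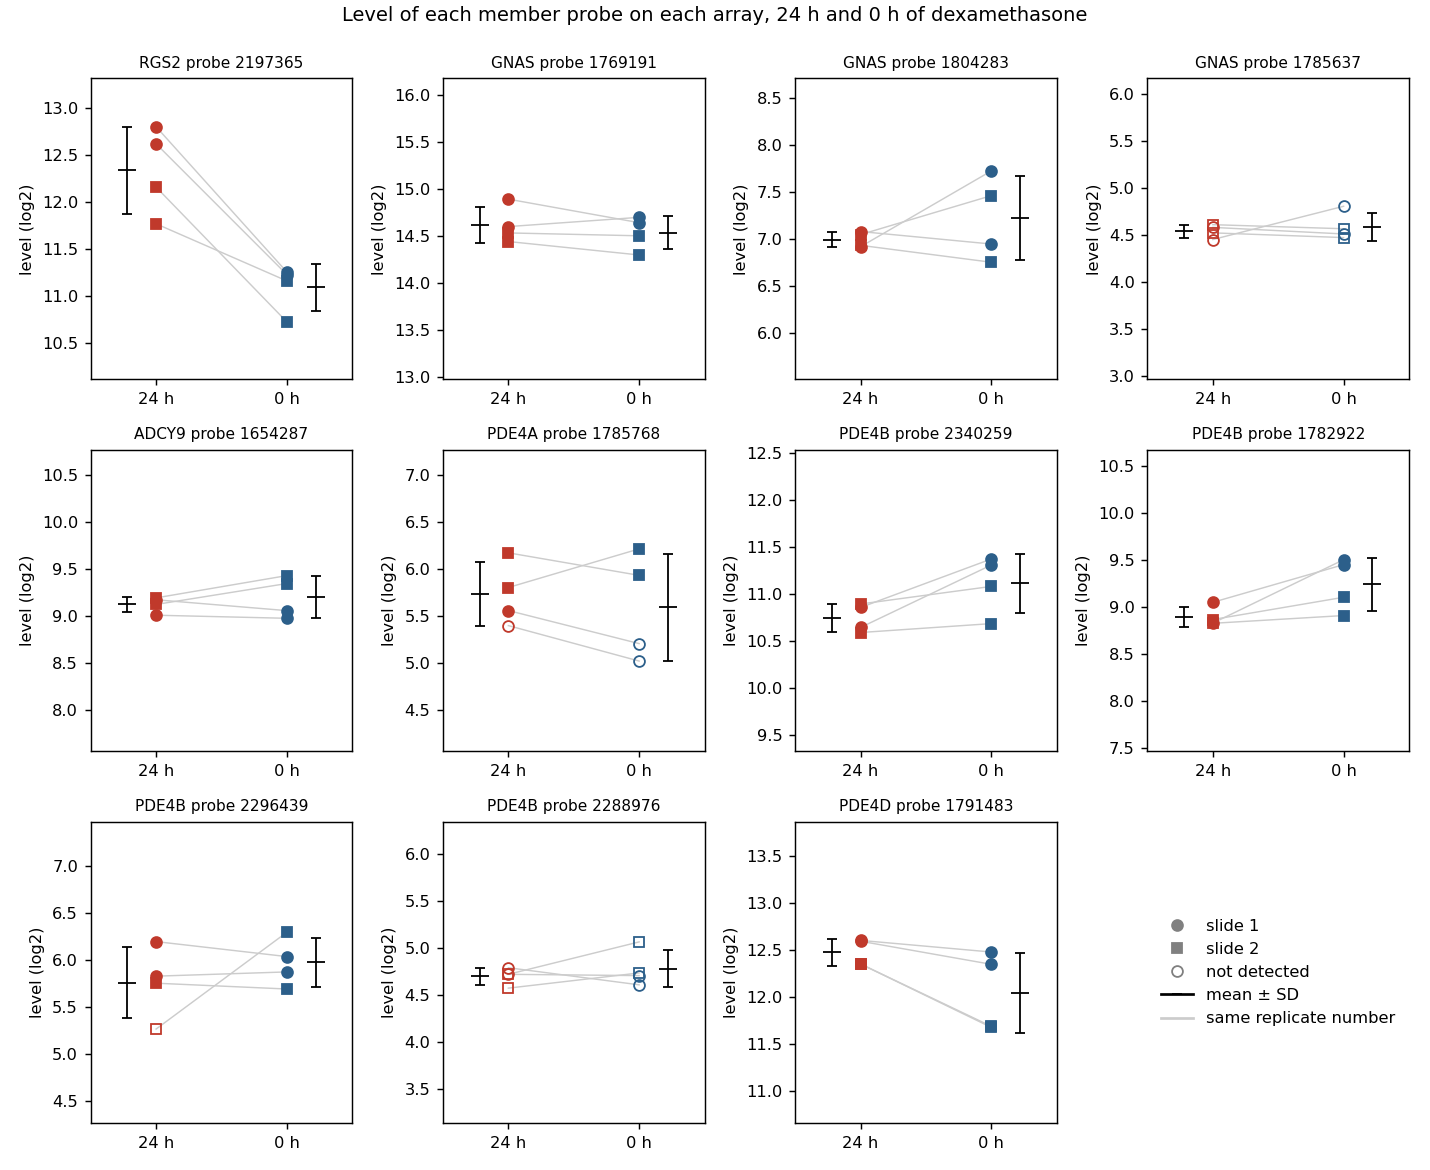
Normalized log2 level of every probe of the 6 genes on each array, with 24 h of dexamethasone left of 0 h; points are arrays (circles slide 1, squares slide 2, open where not detected), grey lines join a replicate number, and bars are mean ± SD of 4 arrays. RGS2 is the gene whose 4 arrays at 24 h, between 11.77 and 12.80, all sit above its 4 arrays at 0 h, between 10.73 and 11.26; levels of different probes are not on a common scale.

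RGS2 stood well within the range of the genes that rose. Of 10964 genes tested, 10.2% were called in either direction at an adjusted p under 0.05, 522 higher (4.76%) and 591 lower (5.39%), each gene being read by its brightest tested probe. Of the 6 members, 1 was called. By size RGS2 ranked 155 among the 522 genes called higher. The members' median change was 0.11, against -0.0081 for all genes tested, with 4 members above 0 and 2 below. Values at 24 h and 0 h were without overlap for 1 member, RGS2, and for 17.4% of all genes. Counted by probe, 1 of the members' 9 tested probes was called, against 9.87% of all probes tested. With the replicate number as a block, which raised the calls over all genes to 17.2%, RGS2 was again the 1 member called.

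The genes whose values ran most like those of RGS2 over the 8 arrays were MICALCL, CNR1 and ADGRG6. After centring each gene on its mean, their root mean square differences from RGS2 were 0.12, 0.18 and 0.19 log2 units, against a standard deviation of 0.70 for RGS2 itself. Since they were chosen for this likeness, their differences between times are given without a test. ADGRG6, an adhesion G protein-coupled receptor, differed by 1.13 ± 0.19 (SE). CNR1, the cannabinoid receptor of the brain, had a mean level of 6.20 at 24 h and 4.85 at 0 h and was above detection on 4 arrays of 4 at 24 h, against 0 of 4 at 0 h. It was at least 1.66-fold higher at 24 h. That bound sets the mean at 24 h against the lowest signal of a detected probe, or the probe's own signal where higher, on each 0 h array.

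GNAS was represented by 3 probes, designed on transcripts of 3 products of the locus. Whether a probe also reads the other products was not checked. The probe designed on a Gs alpha transcript (ILMN_1769191, NM_000516) had levels of 14.60, 14.89, 14.53 and 14.44 at 24 h, against 14.70, 14.64, 14.50 and 14.30 at 0 h. The times overlapped, and the difference of 0.08 ± 0.15 had a 95% interval of -0.24 to 0.41 (adjusted p = 0.812). The second probe (ILMN_1804283, NM_016592) was designed on a transcript of NESP55, a secretory protein made from an upstream promoter of the locus. Its levels were 6.92, 7.08, 6.94 and 7.05 at 24 h, against 7.73, 6.95, 6.76 and 7.46 at 0 h, so the 0 h arrays lay on both sides of a narrow 24 h group. The difference was -0.23 ± 0.20 (95% interval -0.68 to 0.22, adjusted p = 0.587). The third probe (ILMN_1785637, designed on NM_080425), for the extra-large form XLαs, was detected on 0 of 8 arrays and was not tested. Between both tested GNAS probes the changes differed by 0.31, which an exact two-sided permutation test over the arrays did not separate from their spread (p = 0.343, adjusted p = 0.767 over the 7 pairs of probes compared).

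ADCY9, an adenylyl cyclase of the plasma membrane that responds little to forskolin, did not pass the test. Its probe (ILMN_1654287) had levels of 9.01, 9.17, 9.19 and 9.12 at 24 h, against 8.97, 9.05, 9.43 and 9.34 at 0 h. The 24 h values all lay inside the 0 h range. The difference was -0.08 ± 0.14 (95% interval -0.39 to 0.23, adjusted p = 0.811). It was 0.07 on the slide of replicates 1 and 2 and -0.23 on that of replicates 3 and 4.

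The PDE4 genes gave no call, and PDE4D and PDE4B had differences of opposite sign. PDE4D, whose enzymes are the PDE4 forms known to bind beta-arrestin at the activated receptor, had 1 probe (ILMN_1791483). Its levels were 12.59, 12.60, 12.35 and 12.35 at 24 h, against 12.34, 12.47, 11.68 and 11.67 at 0 h. The array at 24 h exceeded the 0 h array of the same number in 4 of 4 replicates, by 0.25, 0.12, 0.66 and 0.68, while the groups as wholes overlapped. The mean was 12.47 ± 0.14 at 24 h and 12.04 ± 0.43 at 0 h (SD, n = 4 each), a difference of 0.43 ± 0.20 with a 95% interval of -0.018 to 0.87 (adjusted p = 0.243). By slide it was 0.18 for replicates 1 and 2 and 0.67 for replicates 3 and 4.

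PDE4B, the PDE4 form known for its induction in inflammatory cells, had 4 probes, of which 3 were tested. The brightest (ILMN_2340259) had levels of 10.64, 10.85, 10.89 and 10.59 at 24 h, against 11.31, 11.37, 11.08 and 10.68 at 0 h. It was lower at 24 h in 4 of 4 replicates, by 0.66, 0.52, 0.19 and 0.09 log2 units, and the groups overlapped through the 0 h array of replicate 4. Its mean was 10.74 ± 0.15 at 24 h and 11.11 ± 0.31 at 0 h, a difference of -0.37 ± 0.17 with a 95% interval of -0.74 to 0.009 (adjusted p = 0.234). A second probe on the same transcript (ILMN_1782922, both designed on NM_002600) had levels of 8.83, 9.05, 8.87 and 8.83 at 24 h, against 9.51, 9.45, 9.11 and 8.91 at 0 h. It gave -0.35 ± 0.16 (95% interval -0.70 to -0.001, adjusted p = 0.220), and its change and that of the brightest probe differed by 0.02 (exact permutation p = 0.886). Both probes had their larger difference on the slide of replicates 1 and 2, at -0.59 and -0.54, against -0.14 and -0.16 on that of replicates 3 and 4. The slide with the larger PDE4B difference was the one with the smaller PDE4D difference.

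The third PDE4B probe (ILMN_2296439, designed on NM_001037340) was dim, with levels of 5.83, 6.20, 5.76 and 5.27 at 24 h, against 5.88, 6.04, 5.70 and 6.30 at 0 h. Detection reached 3 arrays of 4 at 24 h, against 4 of 4 at 0 h. Its difference of -0.21 ± 0.20 (adjusted p = 0.616) came mainly from replicate 4, at -1.03, while replicates 1 to 3 lay between -0.05 and 0.16. The fourth probe (ILMN_2288976, designed on NM_001037341) was detected on 0 of 8 arrays.

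PDE4A, the remaining PDE4 gene among the 6 members, was near the detection limit. Its probe (ILMN_1785768) passed detection on 3 arrays of 4 at 24 h, against 2 of 4 at 0 h, with levels of 5.40, 5.56, 5.81 and 6.18 at 24 h, against 5.02, 5.21, 6.22 and 5.94 at 0 h. The levels followed the slide, with replicates 3 and 4 above replicates 1 and 2 at both times. The difference was 0.14 ± 0.27 (95% interval -0.47 to 0.74, adjusted p = 0.831), at 0.36 on slide 1 and -0.09 on slide 2.

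**Figure D2:**
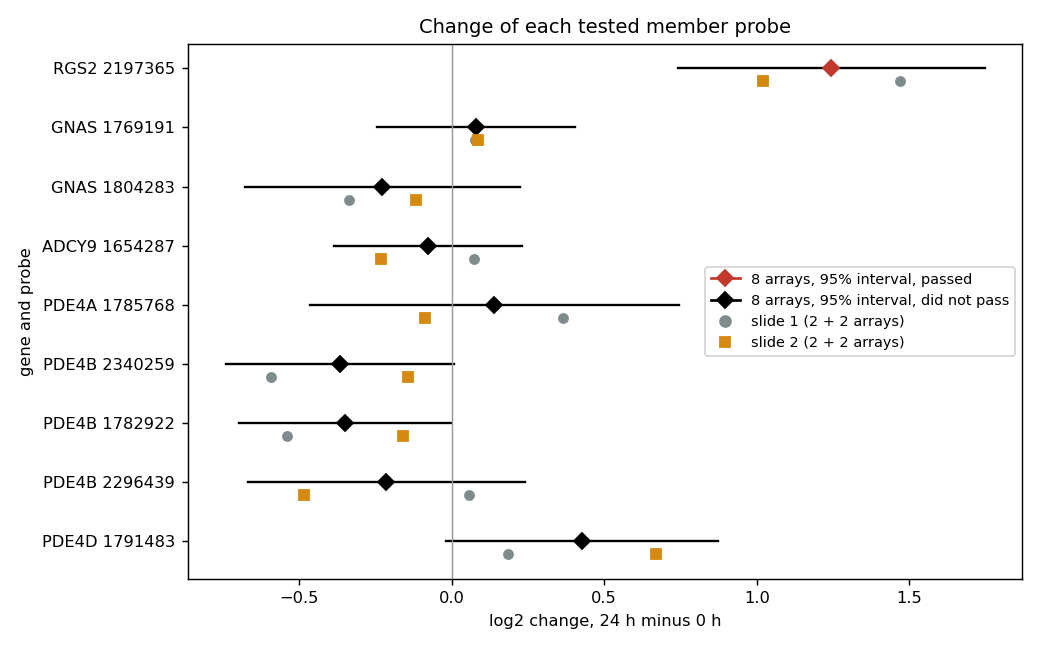
Difference in log2 level, 24 h minus 0 h, of each tested probe of the 6 genes, with diamonds and lines for the estimate and 95% interval over 8 arrays, circles for slide 1 and squares for slide 2. The interval of RGS2 runs from 0.74 to 1.75 and stays above 0, those of GNAS, ADCY9 and PDE4A span 0, and the PDE4D interval ends at -0.018 and the brightest PDE4B interval at 0.009.

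Whether the PDE4 genes changed unequally was asked of the difference between their probes on each array. Levels of different probes are not on a common scale, so the change of this difference with time is what can be read. PDE4D minus the brightest PDE4B probe was 1.95, 1.74, 1.46 and 1.76 log2 units at 24 h, against 1.04, 1.10, 0.61 and 0.99 at 0 h. The 4 arrays at 24 h were all above the 4 at 0 h, and this held on each slide. Of all single genes tested, 17.4% were without overlap, and the share among pairs of genes was not computed. The mean of PDE4D minus PDE4B was 1.73 ± 0.20 at 24 h and 0.93 ± 0.22 at 0 h (SD, n = 4 each), an unequal change of 0.79. The exact two-sided permutation p was 0.0286, the smallest that 4 arrays against 4 can give, and 0.2 after adjustment over the 7 pairs. With 7 pairs and no other separated pair the adjusted p cannot be below 0.2, so it is no measure of how firm this change is. Taken by replicate number, the unequal change was 0.91, 0.64, 0.85 and 0.77, with a mean of 0.79 ± 0.12 (SD, n = 4). A paired exact test of 4 numbers could not go below p = 0.125. PDE4D against PDE4A gave an unequal change of 0.29 (exact p = 0.657) and PDE4A against PDE4B one of 0.50 (exact p = 0.343).

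**Figure D3:**
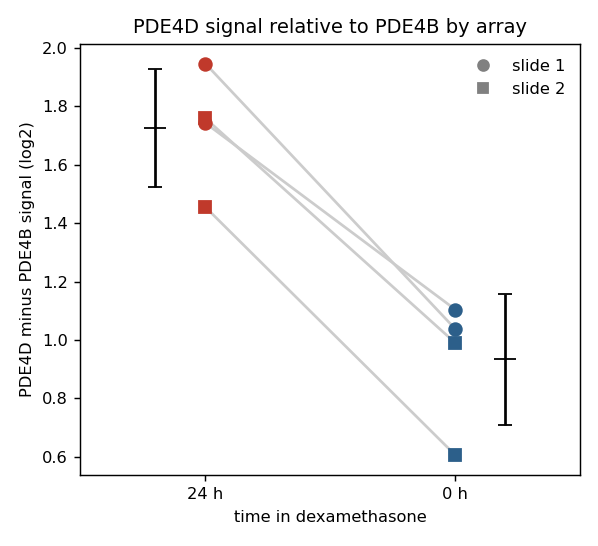
Log2 level of the PDE4D probe minus that of the brightest PDE4B probe on each array, with 24 h of dexamethasone left of 0 h; points are arrays, circles on slide 1 and squares on slide 2, grey lines join a replicate number, and bars are mean ± SD of 4 arrays. The 24 h arrays lie between 1.46 and 1.95 and the 0 h arrays between 0.61 and 1.10; the height of the scale is set by the probes, and the step between times is the measurement.

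Likeness over the 8 arrays was taken for the other members too, as a description. The nearest gene was CDC14B for GNAS, METAP2 for ADCY9, NUMA1 for PDE4A, AHI1 for PDE4B and LMBR1 for PDE4D, at root mean square differences of 0.05, 0.03, 0.10, 0.06 and 0.07 log2 units over the 8 arrays. The next were SDCBP and CTTNBP2NL for GNAS, XAB2 and NONO for ADCY9, CNPPD1 and ACP2 for PDE4A, RNF144A and ARNT2 for PDE4B, and VPS13C and TENT2 for PDE4D.

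The rest of the pathway was read from 8 lists of genes, from receptors to cyclic AMP-responsive genes, that hold 165 genes with the members. The lists were chosen with earlier results of these data known, so their share of called genes is a description and not a test. Of the 104 genes tested, 14 rose and 6 fell, together 19.2%, against the 10.2% of all genes, and the lists' median change was -0.038, against -0.0081 for all genes. With the replicate block, 16 of them rose in place of 14, where 8.1% of all genes rose. With that block 13 fell in place of 6, where 9.14% of all genes fell. The lists of RGS proteins and phosphodiesterases held 8 of the 13 that fell. Without one array the number that rose ran from 9 to 15 and the number that fell from 3 to 10. The lowest number that rose came without replicate 3 at 24 h. The number that fell was 3 without replicate 1, 2 or 3 at 24 h or without replicate 1 or 2 at 0 h, and 10 without replicate 4 at 0 h.

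Among the Gs-coupled and related receptors, 13 of 25 listed genes were tested, 3 rose and 0 fell, and the median change was -0.014. PTGER4, a prostaglandin E2 receptor that couples to Gs, had levels of 9.70, 9.88, 9.78 and 9.37 at 24 h, against 7.95, 8.04, 8.05 and 8.10 at 0 h. The times stood well apart, with a difference of 1.65 ± 0.14 (adjusted p = 5.86e-05). PTGER2, the other Gs-coupled receptor of that ligand, differed by 1.41 ± 0.31 (adjusted p = 0.0164), and PTH1R, the parathyroid hormone receptor, by 1.00 ± 0.17 (adjusted p = 0.00422). The call of PTGER2 was lost without replicate 2 or replicate 3 at 24 h (adjusted p = 0.0518 to 0.0538). VIPR1, a receptor for vasoactive intestinal peptide, missed the threshold at 0.70 (adjusted p = 0.0778) but was called higher with the replicate block (adjusted p = 0.00995) and with the slide as a block (adjusted p = 0.0187). Without background correction the differences of PTGER2 and PTH1R were 0.93 and 0.64, and both were called.

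Of the receptor kinases, arrestins and trafficking proteins, 7 of 11 were tested. GRK4, a kinase that phosphorylates active receptors, rose by 1.10 ± 0.24 (adjusted p = 0.0164) at its brightest probe, and was detected there on 4 arrays of 4 at 24 h, against 2 of 4 at 0 h. Another GRK4 probe designed on the same transcript was detected on no array. A further one was detected on 1 array of 4 at 24 h, against 0 of 4 at 0 h, and neither was tested. NHERF1, a scaffold that returns receptors to the cell surface, fell by 0.53 ± 0.14 (difference -0.53, adjusted p = 0.0394). Without background correction the difference of GRK4 was 0.50, and with an offset of 50 it was 0.71, both called. The call of GRK4 was lost without replicate 1 or 3 at 24 h, and that of NHERF1 in 7 of the 8 fits that left out one array. None of the 22 tested G protein subunits, of 27 listed, passed limma's adjusted threshold, and 1 had an unadjusted p under 0.05. Likewise 0 of the 6 tested adenylyl cyclases, of 11 listed, were called, and 1 had an unadjusted p under 0.05. With the replicate block 1 gene of each of these lists was called lower, GNG4 and ADCY1. Limma's unadjusted p was under 0.05 for 22.9% of all genes tested. Among the other lists, these were 5 of 13 receptors and 2 of 7 receptor kinases, arrestins and trafficking proteins. They were also 6 of 10 RGS genes and 8 of 17 phosphodiesterases. The kinase A list held 4 of 17 and the CREB list 5 of 12.

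The RGS family had 10 of its 21 listed genes tested, of which RGS2 rose and RGS12 fell, and its median change was -0.32. RGS12, which speeds GTP hydrolysis by Gi proteins, differed by -0.93 ± 0.15 (adjusted p = 0.00269). With the replicate block RGS14, RGS17 and RGS19 were called lower too, at -0.36, -0.41 and -0.45. RGS11 had a difference of 0.71 at its brightest probe, which did not pass (adjusted p = 0.0843), while its dimmer probe, at 0.62, did (adjusted p = 0.0305). RGS1, RGS4, RGS5, RGS8, RGS9 and RGS13 were detected on no array.

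Among the cyclic nucleotide phosphodiesterases, 17 of 25 were tested, 2 rose and 3 fell, and the median change was -0.039. PDE7B, a cyclic AMP-specific enzyme that PDE4 inhibitors do not block, had levels of 8.49, 8.54, 8.83 and 8.33 at 24 h, against 10.25, 10.22, 9.89 and 9.41 at 0 h. Its difference was -1.39 ± 0.20 (adjusted p = 0.00165), with no overlap. PDE1C, which calcium and calmodulin activate, differed by -1.37 ± 0.21 (adjusted p = 0.00246). PDE6A, a subunit of the photoreceptor enzyme, had levels of 7.14, 7.14, 7.29 and 6.79 at 24 h, against 5.32, 5.32, 5.69 and 5.30 at 0 h, where it was detected on 1 of 4 arrays. Its difference was 1.69 ± 0.15 (adjusted p = 0.000104), set against a level not detected on 3 of 4 arrays at 0 h. Without background correction the differences were 0.81 for PDE6A and -0.74 for PDE1C, and both were called.

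The PDE8 genes, which encode cyclic AMP-specific enzymes of high affinity, had calls of opposite sign that were less firm. PDE8B differed by 0.65 ± 0.15 (adjusted p = 0.0181) and PDE8A by -0.64 ± 0.17 (adjusted p = 0.0451). Their dimmer probes did not pass, at 0.30 for PDE8B (adjusted p = 0.289) and -0.26 for PDE8A (adjusted p = 0.711). Leaving out one array ended the call of PDE8B in 3 of 8 fits, those without replicate 1 or 3 at 24 h or replicate 3 at 0 h, and that of PDE8A in 7 of 8. With the replicate block PDE3A was called higher, at 0.57 (adjusted p = 0.0337), and PDE3B lower, at -0.55 (adjusted p = 0.0162).

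Of the genes for protein kinase A, EPAC and anchoring proteins, 17 of 23 were tested, 3 rose and 0 fell, and the median change was 0.020. AKAP13, which anchors protein kinase A, rose at both of its probes, by 1.24 ± 0.15 (adjusted p = 0.000521) and by 1.75. AKAP12, an anchoring protein known for binding beta-adrenergic receptors, rose by 0.96 ± 0.23 at its brightest probe (adjusted p = 0.0267) and by 1.33 at a second. The remaining AKAP12 probe, at 0.65, did not pass (adjusted p = 0.225). PRKACG, a catalytic subunit of the kinase, rose by 0.88 ± 0.23 (adjusted p = 0.0341). PKIA, an inhibitor of the kinase, did not pass at -0.65 (adjusted p = 0.185) but was called lower with the replicate block (adjusted p = 0.0395). The calls of the brightest AKAP12 probe and of PRKACG were each lost in 6 of the 8 fits that left out one array.

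In the list of CREB factors, coactivators and cyclic AMP-responsive genes, 12 of 22 were tested, 4 rose and 1 fell, and the median change was 0.0069. FOS, a subunit of the AP-1 factor, rose by 1.65 ± 0.15 (adjusted p = 0.00011). DUSP1, a phosphatase of MAP kinases, rose by 1.20 ± 0.18 (adjusted p = 0.00192), and PER1, a clock gene, by 1.05 ± 0.23 (adjusted p = 0.0147), PER1 being detected on 4 arrays of 4 at 24 h, against 1 of 4 at 0 h. DUSP1 and PER1 are known as targets of the glucocorticoid receptor as well as of cyclic AMP. The PER1 difference is likewise set against a level mostly not detected at 0 h. It was 0.47 without background correction, 0.62 with an offset of 50 and 0.66 in the authors' deposited table of normalized values, and was called in each. SIK1, a kinase that phosphorylates CREB coactivators, rose by 0.74 ± 0.15 (adjusted p = 0.0121). NR4A2, an orphan nuclear receptor, differed by -1.22 ± 0.34 (adjusted p = 0.0459), a call that was lost in 7 of the 8 fits that left out one array. Without background correction it was -0.75.

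**Figure D4:**
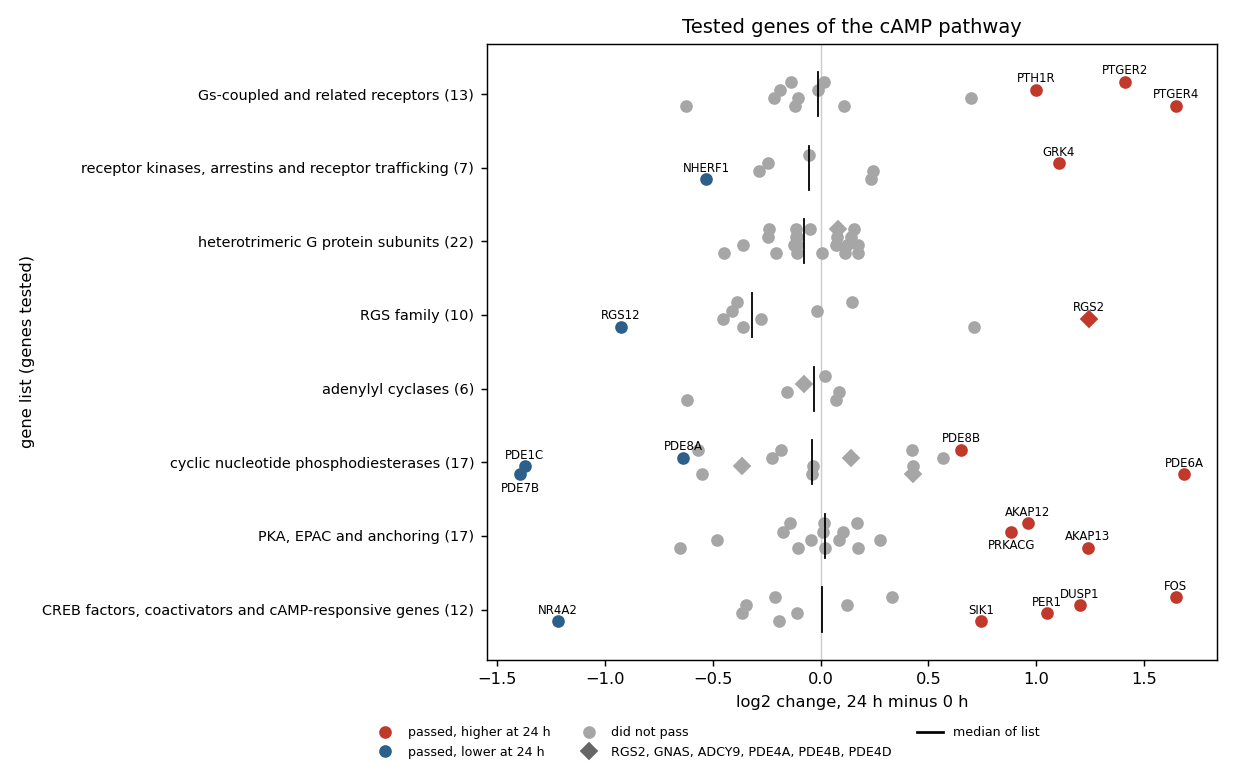
Difference in log2 level, 24 h minus 0 h, of every tested gene of the 8 pathway lists, one row a list; red points passed the test higher at 24 h, blue ones passed it lower, grey ones did not pass, diamonds are the 6 genes described above, black ticks are list medians and the grey line is 0. The receptors and the kinase A list have called genes to the right alone, the phosphodiesterases have 2 called genes to the right and 3 to the left, and the G protein subunits and adenylyl cyclases have none.

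Markers of other cell types were in part absent and in part detected on all arrays. Of 8 smooth muscle markers 4 were tested and MYH11 and CNN1 were detected on no array. ACTA2 (mean 12.40 at 24 h and 12.37 at 0 h), TAGLN (11.70 at 24 h and 11.92 at 0 h) and MYOCD (6.80 at 24 h and 6.98 at 0 h) were detected on all 8 arrays and did not pass, with adjusted p of 0.958, 0.617 and 0.486. SMTN fell at its brightest probe (difference -0.62, adjusted p = 0.0114) and not at its dimmer one (-0.32, adjusted p = 0.249). Of 8 fibroblast markers 4 were tested and COL1A2, COL3A1 and PDGFRB were detected on no array. DCN was above detection on 4 arrays of 4 at 24 h, against 0 of 4 at 0 h, at its brightest probe. It was at least 2.92-fold higher there at 24 h (mean 7.01 at 24 h and 5.05 at 0 h). This probe met the detection filter through the 24 h arrays alone, so its difference is given without a test. The other DCN probe was detected on no array (mean 4.76 at 24 h and 4.87 at 0 h) and was not tested. COL1A1 differed by -1.21 (adjusted p = 0.0375). PDGFRA (8.10 at 24 h and 8.34 at 0 h) and THY1 (7.46 at 24 h and 7.81 at 0 h) were detected on all 8 arrays and did not pass. The summed linear level of the fibroblast list was 475 to 713 at 24 h and 448 to 952 at 0 h, and that of the smooth muscle list 7305 to 11828 at 24 h and 8205 to 12008 at 0 h. Of the leukocyte markers PTPRC, CD3E and TYROBP were detected on no array, and of the endothelial markers CDH5, VWF, TEK and CLDN5. Limma called 0 of the 2 tested genes in each of these lists, with 1 leukocyte and 0 endothelial genes at an unadjusted p under 0.05. The monocyte marker CD14 (8.12 at 24 h and 8.78 at 0 h), CD68 and PECAM1 were detected on all 8 arrays, and KDR on 7. Their summed levels were 246 to 464 at 24 h and 438 to 583 at 0 h for leukocytes, and 107 to 179 at 24 h and 142 to 157 at 0 h for endothelium. Of the A549 markers 3 rose, CPS1 by 1.06, KRT8 by 0.93 and KRT18 by 0.69, each at its brightest probe, while the other KRT18 probe did not pass at 0.32 (adjusted p = 0.361). KRT19, at -0.47, did not pass (adjusted p = 0.360) but was called lower with the replicate block (adjusted p = 0.0338). Their summed level was 152252 to 165925 at 24 h and 151862 to 160296 at 0 h. The part of any of these in the changes of RGS2 or of the pathway lists was not tested.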

How the data were processed

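The deposited unprocessed table holds, per the file headers, a mean bead intensity, a bead number and a detection p-value for each of 25204 probes and 8 arrays; these intensity values are linear. A second table holds the authors' normalized log2 values of 22011 probes, with medians of 6.95 to 6.965 per array. Its normalization method is not given in the sources used here; per the submitters' processing notes limma was used, with no version. Each of its columns correlated at 0.998 with the same array as normalized here.

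Intensities were background-corrected with limma 3.58.1 in R 4.3.3 (nec, background estimated from detection p-values, offset 16), cut to those 22011 probes, quantile-normalized and taken to log2. Probes detected (p under 0.05) on at least 4 of 8 arrays were tested, 14533 in all, of which 9 of the members' 11, with lmFit and eBayes, two-sided, no covariate, and Benjamini-Hochberg adjustment over all tested probes at 0.05. A gene was read by its brightest tested probe. The fit was tested on simulated data. Noise there was independent between probes and arrays, so the simulation held no slide or replicate effect such as these arrays have. Each member value came from 21 to 53 beads, median 37, and the number of arrays limits the precision. No 2 arrays held identical values.

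Unequal changes of 2 probes were tested by exact permutation of the 8 arrays over 70 splits, with the 7 pairs adjusted together. The platform annotation gives 1 symbol to 19759 probes, several to 0 and none to 2252. For 19741 the symbol was taken from RefSeq through the Entrez ID, whether or not it differed. Symbols can be old. Promoters, starts and gene positions are from RefSeq (GRCh38.p14).

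The members and the gene lists were chosen with earlier results of these data known. Named by rule were all member probes, from each of the 8 lists the called genes (at most 6, smallest p first), EHMT1 and EHMT2 as checks, and the 3 genes nearest each member; other list genes are named as values. EHMT2, the partner enzyme of GLP, differed by -0.30 ± 0.12 (adjusted p = 0.178).

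The main fit and the permutation test did not use the replicate numbers as pairs, while the replicate block did. After removal of the group means, same-numbered arrays correlated at 0.37 to 0.46 in 4 of 4 pairs. In all, 8 of 8 arrays correlated best with their own number. A number does not split a slide, so this pairing includes the slide. Alternatives were other background corrections and offsets, normalizations, detection filters, the authors' table, blocks for replicate or slide, each slide alone, array weights, a trended and robust eBayes, the mean of a gene's probes and each array left out.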

Additional observations from a re-analysis of the deposited data

Results flagged for a closer look

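Of 56 groups of 4 arrays checked, 2 held an array far from the other 3, where chance gives about 1 in 20. PTGER2 stood at 5.86 on the 0 h array of replicate 4, against 6.94 to 7.15 on the other 0 h arrays. Without that array its call was kept, and its losses came without replicate 2 or 3 at 24 h. PDE6A stood at 5.69 on the 0 h array of replicate 3, against 5.30 to 5.32 on the others, and its call was kept without any one array.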

How the results depend on the processing

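RGS2 was called higher under every alternative except slide 2 (replicates 3 and 4) alone, where it was 1.02 (adjusted p = 0.0815) and 0 members were called. Leaving out each array in turn gave 1.09 to 1.43 for RGS2 (adjusted p = 0.00292 to 0.0219) and 1 member called each time. The replicate block gave RGS2 1.24 (adjusted p = 0.00389) and changed no call of a member. Of 187 values of the 9 tested member probes under alternatives, 178 kept direction and side of the threshold, 1 was no longer past it and 8 changed sign, none of them called. The GNAS probe designed on Gs alpha was -0.044 with median scaling and -0.0061 with array weights. Without one array it was -0.010 to 0.14, and the mean of the GNAS probes gave -0.073. ADCY9 was 0.074 on slide 1, PDE4A -0.086 on slide 2 and -0.051 to 0.35 without one array, and the third PDE4B probe 0.057 on slide 1. PDE4B (both NM_002600 probes) and PDE4D kept their signs and were never called, with the lowest adjusted p, 0.0538, for PDE4D with the slide as a block. With the replicate block limma's adjusted p was 0.0676 for PDE4D, and 0.0963 and 0.101 for these PDE4B probes. The cause of these shifts was not tested.

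Over all genes, 340 were higher with median scaling, 888 higher and 1002 lower with the replicate block, 241 and 261 on slide 1 alone, 220 and 196 on slide 2, and 357 to 492 higher and 413 to 540 lower without one array. Of the pathway genes, 7 were higher on slide 1, and 9 higher and 1 lower on slide 2. With the replicate block 16 were higher and 13 lower, and without one array 9 to 15 higher and 3 to 10 lower. Each slide alone has 2 arrays a time. Of 336 counts per list, 66 moved by over 1.5 times. All 20 called pathway genes kept their sign throughout. With both slides in use and all arrays kept, median scaling ended the calls of NHERF1, PDE8B, PDE8A, AKAP12, DUSP1 and SIK1, array weights those of NHERF1 and AKAP12, no detection filter those of PDE8A, PRKACG and NR4A2, and cyclic loess and the slide as a block that of NR4A2.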

Other observations

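The slides differed in the level of some members beside any change with time. PDE4A was 0.73 log2 units higher on the slide of replicates 3 and 4 than on that of replicates 1 and 2, and 2.54% of genes had a larger slide difference in either direction. RGS2 was 0.52 lower on the slide of replicates 3 and 4 (difference -0.52, with 8.76% of genes larger), and PDE4D 0.49 lower (difference -0.49, with 10.7% larger). GNAS stood at -0.26 for the probe designed on Gs alpha, and ADCY9 at 0.22. These were ordinary slide differences, with 36.2% and 44.5% of genes larger.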
